A study of Mus musculus with 2 samples.

Results

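The genes described here are 10 that cells use against unfolded protein in the endoplasmic reticulum (ER): Hspa5, Hsp90b1, Calr, Pdia4, Pdia6, Ddit3, Atf4, Xbp1, Herpud1 and Creld2. They were taken by symbol from the gene rows that both libraries share, 10 of 33696 genes. The rule itself used no measured value, but the genes and the lists below were chosen with earlier results of these data known. Counts set beside the share of all genes are thus a description and not a test. Ddit3 stands on 2 rows, of which 1 held 0 UMIs in every kept cell and was left out. The 10 genes had from 4632 (Ddit3) to 120133 (Hspa5) UMIs over both libraries in the kept cells.

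The cells came from hindlimb digits of neonatal ICR mice, amputated through the second phalanx (P2) at postnatal day 3, a level from which a digit does not regenerate. At postnatal day 7 a bead was implanted, soaked either in FGF8, a fibroblast growth factor, or in bovine serum albumin (BSA) as the control. The tissue beyond the stump was collected 24 h later, at postnatal day 8, without its epithelium, and digested with Liberase at 37 °C for 4 h. Each group was 1 library of pooled male and female cells from 20 digits of 5 mice, and the FGF8 pool probably included digits that would not have regenerated.

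With 1 library per group no p-value can be given. The intervals below cover counting error only, not the spread between cells, digits or mice. Counts are unique molecular identifiers (UMIs), 1 per captured RNA molecule, and levels are CPM, the UMIs of a gene per 1000000 UMIs of the summed cells. After filtering, the FGF8 library held 6715 cells with a median of 12251 UMIs and the BSA library 3252 cells with a median of 15377. Clustering gave 9 clusters, 8 of which carried the markers of a cell type and were named by it. All listed markers of each named cluster, 6 or 7, were higher in it than in the other cells of either library. The largest cluster was fibroblast-like, with 3271 FGF8 and 1664 BSA cells at median depths of 18822 and 20490 UMIs.

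The libraries differed in their sex calls and in the share of cells with a UMI of cycling genes. Male-called cells (a UMI of a Y-linked gene and none of Xist) outnumbered female-called ones by 3523 to 1151 in the FGF8 library, while in the BSA library they were 507 to 1943. Among fibroblast-like cells, 61.1% with FGF8 and 29.1% with BSA held a UMI of Top2a, Mki67, Cenpf or Birc5, genes of dividing cells. These shares were not thinned to 1 depth. They were higher in the FGF8 library in other clusters too, at 30.5% and 8.23% of neutrophil-like and 26.8% and 15.9% of erythroid-like cells, so they are given as shares with a UMI and not as shares of dividing cells. Values within each sex and with and without such UMIs are therefore given beside the main result.

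Secreted and membrane proteins fold in the ER, helped by chaperones that hold unfinished chains and by disulfide isomerases that pair cysteines. When unfolded chains build up, sensors in the ER membrane start the unfolded protein response. IRE1 splices the Xbp1 RNA so that it encodes an active factor, ATF6 is cut to release another, and PERK slows translation while favouring that of Atf4, which drives the integrated stress response and Ddit3. Fibroblasts and chondrocytes secrete much collagen and depend on this machinery. Splicing of Xbp1, cleavage of ATF6 and translation of Atf4 are not read by the UMI counts used here, so what follows is RNA level alone.

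The promoters are shown because XBP1 and ATF6 act through short elements that some of these genes carry near their start. The ER stress response element (ERSE) was searched as CCAAT and CCACG with 9 bases of any kind between them, its shorter form ERSE-II as ATTGG and CCACG with 1 base between them, and the element bound by ATF4 with its partners as TGATG and AA with 1 base between them. Both strands were read from 250 bases before to 50 after the RefSeq gene start (GRCm38.p6), and all 10 genes had such a window. An ERSE was found in Hspa5, Hsp90b1 (2 copies), Calr, Pdia6 and Creld2, 5 of the 10, against 39 of all 32851 windows (0.119%). An ERSE-II was found in Herpud1, against 12 of all windows (0.0365%). These elements were searched because some of the 10 genes are known to carry them. The counts are thus a description and not a test. The ATF4 element was in Herpud1 too and in 3.97% of all windows, and the windows of Pdia4, Ddit3, Atf4 and Xbp1 held none of these letters. The 220 bases before the start of the 6 genes with an ERSE or ERSE-II follow, 5′ to 3′ on the strand of the gene, with the elements in capitals. In Herpud1 the first run of capitals is the ATF4 element and the second the ERSE-II.
Hspa5, chr2:34771870-34772089, plus strand: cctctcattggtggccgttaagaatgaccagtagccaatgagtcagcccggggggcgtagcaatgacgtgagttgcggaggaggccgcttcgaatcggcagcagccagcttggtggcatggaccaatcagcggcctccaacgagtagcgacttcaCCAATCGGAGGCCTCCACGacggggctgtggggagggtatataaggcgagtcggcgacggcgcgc
Hsp90b1, chr10:86705445-86705664, minus strand: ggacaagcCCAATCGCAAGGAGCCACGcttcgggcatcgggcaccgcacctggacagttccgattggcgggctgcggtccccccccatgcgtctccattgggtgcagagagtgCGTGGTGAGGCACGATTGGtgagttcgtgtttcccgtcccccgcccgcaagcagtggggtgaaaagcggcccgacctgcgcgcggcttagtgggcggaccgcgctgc
Calr, chr8:84846932-84847151, minus strand: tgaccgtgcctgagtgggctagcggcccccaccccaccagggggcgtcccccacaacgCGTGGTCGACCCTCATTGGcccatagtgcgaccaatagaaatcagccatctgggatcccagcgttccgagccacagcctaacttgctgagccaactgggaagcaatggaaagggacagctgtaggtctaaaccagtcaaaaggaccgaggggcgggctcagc
Pdia6, chr12:17266369-17266588, plus strand: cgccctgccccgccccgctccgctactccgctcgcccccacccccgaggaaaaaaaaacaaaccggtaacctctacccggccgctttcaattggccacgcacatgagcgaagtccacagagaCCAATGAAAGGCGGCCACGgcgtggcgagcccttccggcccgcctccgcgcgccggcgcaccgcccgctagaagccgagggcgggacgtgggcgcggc
Creld2, chr15:88819426-88819645, plus strand: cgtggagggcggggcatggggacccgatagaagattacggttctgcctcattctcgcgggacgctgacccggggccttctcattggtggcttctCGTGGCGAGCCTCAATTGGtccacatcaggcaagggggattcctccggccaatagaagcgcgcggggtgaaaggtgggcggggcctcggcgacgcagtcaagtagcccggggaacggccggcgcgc
Herpud1, chr8:94386209-94386428, plus strand: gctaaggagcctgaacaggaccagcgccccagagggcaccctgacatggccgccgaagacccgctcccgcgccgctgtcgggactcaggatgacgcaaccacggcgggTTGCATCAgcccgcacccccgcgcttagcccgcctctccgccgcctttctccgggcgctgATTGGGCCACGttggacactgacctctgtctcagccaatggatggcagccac

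In fibroblast-like cells the 5 ER folding proteins had higher levels with the FGF8 bead than with BSA. Hspa5 (BiP, the main ER chaperone, which also holds the sensors inactive) stood at 968 CPM in FGF8 cells and 647 in BSA cells, a log2 ratio of 0.58 (95% interval 0.56 to 0.60) or 1.50-fold. Calr (calreticulin, a lectin chaperone that binds calcium) stood at 781 and 543 CPM, a log2 ratio of 0.52 (0.50 to 0.55). Hsp90b1 (GRP94, the ER member of the HSP90 family) stood at 879 and 629.7 CPM, a log2 ratio of 0.48 (0.46 to 0.50). For these 3 chaperones the 2 libraries were far apart by counting error. Pdia6, a disulfide isomerase, stood at 455 and 332 CPM, a log2 ratio of 0.46 (0.43 to 0.49). The related isomerase Pdia4 stood at 93.0 and 77.1 CPM, a smaller log2 ratio of 0.27 (0.21 to 0.34).

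Of the 2 other ER genes, Creld2 was above Pdia4 in its ratio and Herpud1 below it. Creld2, an ER protein that can be secreted, stood at 52.7 CPM in FGF8 and 41.7 in BSA fibroblast-like cells, a log2 ratio of 0.34 (0.25 to 0.42). Herpud1, which sits in the ER membrane and helps to degrade misfolded proteins, stood at 63.0 and 59.3 CPM, a log2 ratio of 0.089 (0.014 to 0.16).

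The transcription factors did not all lie on the same side. Atf4 stood at 170.1 CPM in FGF8 and 143 in BSA cells, a log2 ratio of 0.25 (0.20 to 0.30). Ddit3 (CHOP, a factor linked to the death of cells under lasting stress) stood at 27.0 and 23.1 CPM, a log2 ratio of 0.22 (0.10 to 0.34). Xbp1 was lower with FGF8, alone among the 10, at 83.7 against 92.9 CPM, a log2 ratio of -0.15 (-0.21 to -0.089). Its sign was not stable, since the ratio of Xbp1 was 0.049 (-0.041 to 0.14) in cells without a UMI of the 4 cycling genes and 0.059 when all cells were thinned to 5000 UMIs.

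Of the 10 genes, 9 had a log2 ratio above 0, where 42.9% of the 14226 genes with at least 100 UMIs in fibroblast-like cells did, and 2 were above 0.5, where 11.2% of those genes were. The median of the 10 was 0.30, beside -0.072 over all those genes. The 5 genes with an ERSE were also the 5 with the highest ratios, from 0.34 to 0.58, while the other 5 lay between -0.15 and 0.27, an order seen after the values were known and not tested. Herpud1, with its ERSE-II, was among the lower 5. Of 18 other ER folding genes, 15 had a window and 3 of these held an ERSE. These were Dnajc3 at a ratio of 0.30, Canx at 0.22 and Ero1b at -0.082, none of them among the 3 highest of that list. Among the groups of cells described below, the order of the 10 genes was kept in some and not in others. In male-called fibroblast-like cells Ddit3 (0.43) and Atf4 (0.27) lay above Pdia6 (0.23) and Creld2 (0.20). In chondrocyte-like cells Xbp1 (0.37) lay above Hspa5 (-0.46) and Creld2 (-0.49).

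**Figure D1:**
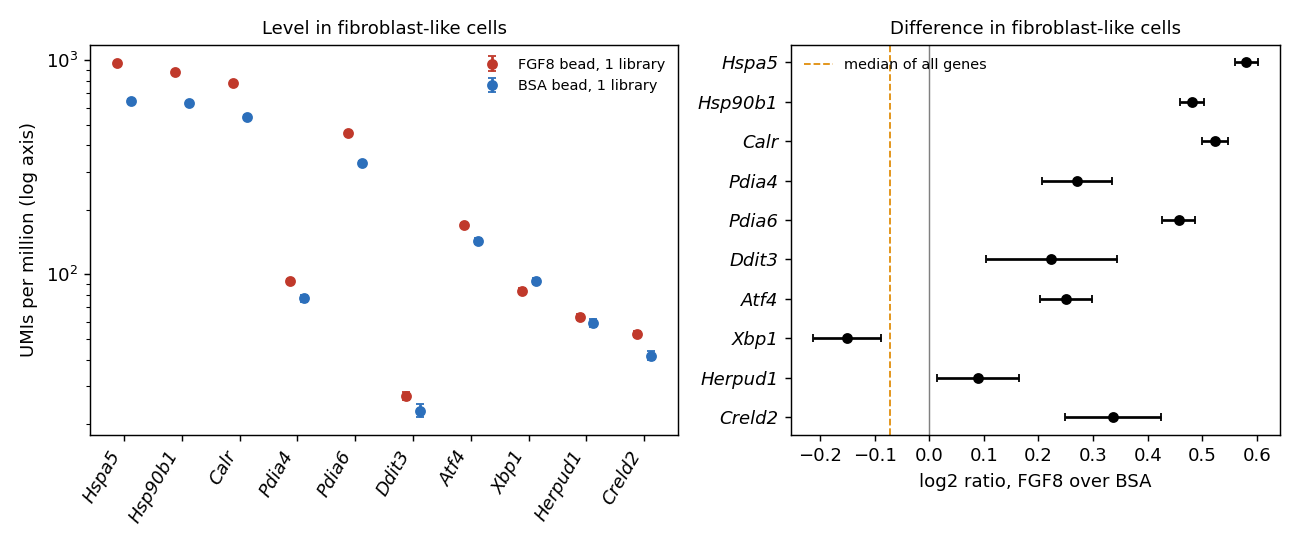
Left, CPM (log axis) of each gene in fibroblast-like cells, FGF8 library in red and BSA library in blue, with exact 95% Poisson intervals that are often smaller than the points. Right, the log2 ratio of FGF8 over BSA with its exact 95% interval, where the dashed line is the median of all genes, -0.072, and Xbp1 at -0.15 is alone to the left of 0.

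The chaperone difference was present in both sexes. In female-called fibroblast-like cells (685 FGF8, 1178 BSA) 9 of the 10 genes were above 0, where 42.4% of genes were, with a median of 0.31. In male-called ones (2113 FGF8, 295 BSA) it was 9 of 10, where 45.2% of genes were, with a median of 0.25. Hspa5 had log2 ratios of 0.57 (0.54 to 0.60) in female-called and 0.44 (0.40 to 0.48) in male-called cells. Calr had 0.57 (0.53 to 0.60) and 0.31 (0.27 to 0.36), and Pdia6 had 0.52 (0.47 to 0.56) and 0.23 (0.17 to 0.29). For Hspa5, Calr and Pdia6 the female-called value was the larger, with intervals apart. Ddit3 lay the other way, at 0.081 (-0.11 to 0.27) in female-called and 0.43 (0.18 to 0.70) in male-called cells, with intervals that overlapped.

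Cells with and without a cycling-gene UMI both had higher chaperone levels with FGF8. Among those with one, 9 of 10 genes were above 0, where 42.9% of genes were, with a median of 0.27 and Hspa5 at 0.55 (0.52 to 0.58). Among those without, 10 of 10 were above 0, where 51.1% of genes were, with a median of 0.22 and Hspa5 at 0.41 (0.38 to 0.44).

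Split by depth, the median ratio was lower in shallow cells, although the shallow subcluster described below had a median of 0.62. Over the genes counted it was 0.33 in fibroblast-like cells of 10000 to 20000 UMIs, 0.37 in those of 20000 to 40000 and 0.24 in those above 40000, but 0.16 in cells of 5000 to 10000 UMIs. In cells of 2000 to 5000 UMIs, 226 in the FGF8 and 118 in the BSA library, 5 of the genes reached 100 UMIs, 1 of them was above 0 and their median was -0.13, beside 0.25 over all 2296 genes counted there. Hspa5 had a ratio of 0.14 (-0.11 to 0.40) in these cells, Hsp90b1 -0.073 (-0.35 to 0.21), Calr -0.13 (-0.44 to 0.18), Pdia6 -0.13 (-0.52 to 0.28) and Atf4 -0.15 (-0.64 to 0.34). All 5 intervals held 0, so no difference was detectable in these cells.

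Single cells varied widely within each library. The 5 chaperones summed to a median of 2728 CPM per FGF8 fibroblast-like cell, with the 10th and 90th percentiles of cells at 1176 and 4545. In BSA fibroblast-like cells the median was 1904 CPM, with 908 and 3396. The 10th, 25th, 50th, 75th and 90th percentiles were all higher in the FGF8 library. Ranked by chaperone UMIs not scaled by depth, the top 10% of cells held 28.5% of these UMIs in the FGF8 and 30.1% in the BSA library. This ranking also follows the depth of the cells, so concentration apart from depth was not read.

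Shares of cells with a UMI were compared after thinning each cell to 2000 UMIs, which left out 114 FGF8 and 49 BSA fibroblast-like cells. Hspa5 was then present in 74.5% (72.9 to 76.0) of FGF8 and 63.5% (61.1 to 65.8) of BSA cells (exact binomial 95% intervals), and unthinned in 95.3% and 94.3%. In erythroid-like cells, at median depths of 6983 and 18542 UMIs, the thinned shares for Hspa5 were 8.35% and 9.21%. For Xbp1 the fibroblast-like shares were 16.3% (15.1 to 17.7) and 16.3% (14.5 to 18.2), with no difference detectable.

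**Figure D2:**
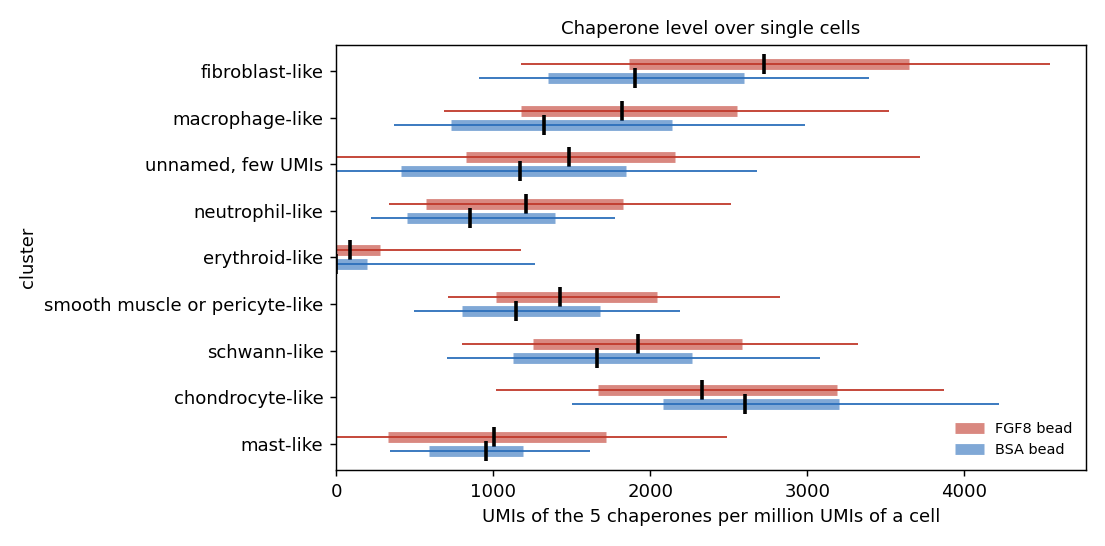
UMIs of the 5 chaperones per 1000000 UMIs of each cell, by cluster and library. Black ticks are medians over cells, thick bars span the 25th to 75th percentiles and thin lines the 10th to 90th. Fibroblast-like medians are 2728 (FGF8) and 1904 (BSA), and chondrocyte-like medians 2328 and 2605.

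Across clusters, fibroblast-like or chondrocyte-like cells, the types that secrete matrix, had the highest level in 9 of the 10 pairs of chaperone and library. The exception was Pdia4 in the BSA library, highest in schwann-like cells at 109 CPM, where the interval overlapped that of chondrocyte-like cells at 87.5. Schwann-like intervals also overlapped those of the leading cells for Pdia4 with FGF8 (91.1 beside 93.0 CPM) and for Hsp90b1 with BSA (613 beside 638 CPM). In the BSA library Hspa5 was highest in chondrocyte-like cells at 1116 (1065 to 1168) CPM, then in fibroblast-like cells at 647 (639 to 656). Macrophage-like cells at 594 (574 to 614) and neutrophil-like cells at 592 (533 to 656) came next for Hspa5. Smooth muscle or pericyte-like cells followed at 519 CPM, the unnamed cluster at 477 and schwann-like cells at 469, and from macrophage-like to schwann-like cells each interval overlapped the next, before mast-like cells at 284 and erythroid-like cells at 65.3. In the FGF8 library the order at the top was the reverse. Fibroblast-like cells led for Hspa5 at 968 (961 to 975) CPM, above chondrocyte-like cells at 812 (782 to 844) and neutrophil-like cells at 783 (742 to 827), which overlapped. Calr likewise was highest in fibroblast-like cells with FGF8 (781 CPM) and in chondrocyte-like cells with BSA (604 CPM). Pdia6 was highest in chondrocyte-like cells in both libraries, at 490.3 and 428 CPM.

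Erythroid-like cells were lowest for each of the 10 genes in both libraries. Their 6 listed markers, hemoglobin genes among them, took 886757 of 1000000 UMIs in the FGF8 and 853429 in the BSA library, which leaves little room for other RNA on this scale. Hspa5 stood at 80.6 and 65.3 CPM there, and Ddit3 at 3.46 and 2.11.

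Ddit3 had its highest level in neutrophil-like cells, at 262 (238 to 288) CPM with FGF8 and 248 (210.2 to 290.1) with BSA, from 440 and 154 UMIs. Mast-like cells came next in the BSA library at 96.6 CPM, from 32 UMIs, and the other clusters were at or below 42.6 in either library, as were FGF8 mast-like cells. Between the libraries neutrophil-like Ddit3 did not differ beyond counting error, with a log2 ratio of 0.083 (-0.19 to 0.36). Thinned to 2000 UMIs, 39.0% of FGF8 and 37.8% of BSA neutrophil-like cells held a Ddit3 UMI, against 5.07% and 4.58% of fibroblast-like cells. Ddit3 was among the 3000 variable genes behind the clusters and the other 9 were not, so its level between clusters is a description only.

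Neutrophil-like cells were also high in Atf4, at 284 (259 to 311) and 211 (176 to 250.1) CPM. Their Hsp90b1, Calr, Pdia4 and Pdia6 levels were the lowest of any cluster but the erythroid-like one, in both libraries. Ddit3 and Atf4 were thus high in cells where Hsp90b1, Calr, Pdia4 and Pdia6 were low, while Hspa5 stood at 783 and 592 CPM there. In the BSA library, however, Atf4 was highest in chondrocyte-like cells, at 327 (300 to 356) CPM, where Hspa5 and Pdia6 were highest too. With FGF8 it stood at 198 CPM in chondrocyte-like cells, next after neutrophil-like cells.

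**Figure D3:**
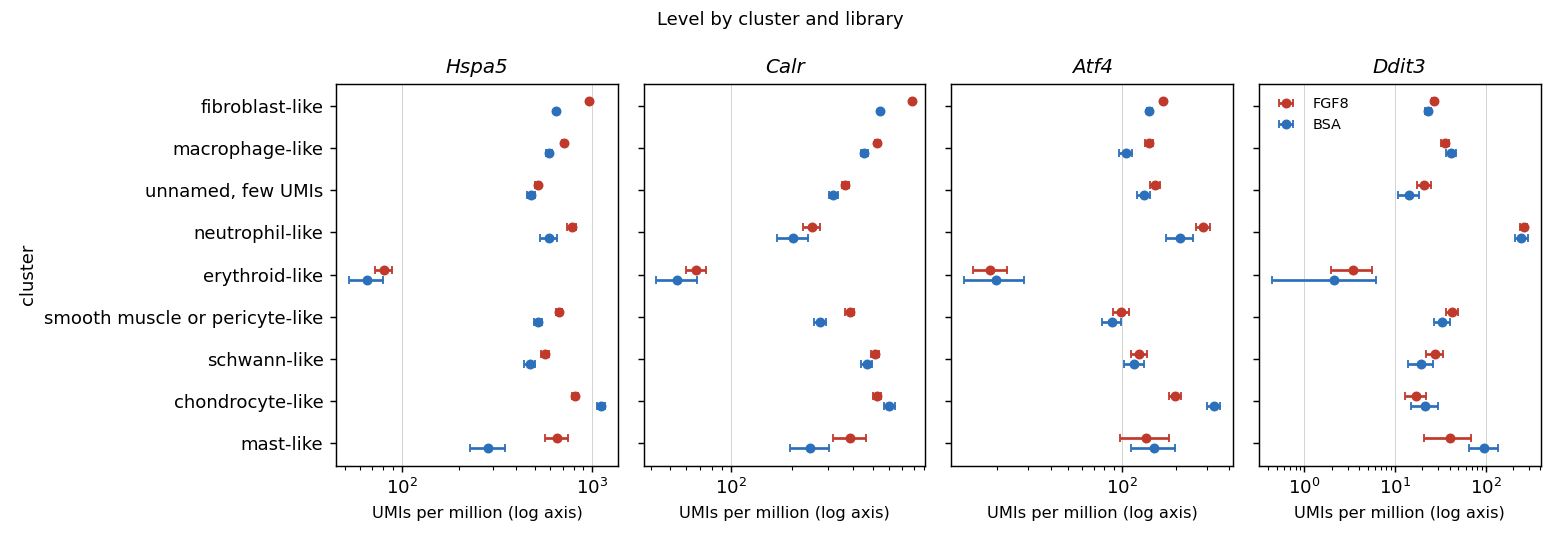
CPM (log axis) of Hspa5, Calr, Atf4 and Ddit3 in each cluster, FGF8 library in red and BSA library in blue, with exact 95% Poisson intervals. Ddit3 is highest in neutrophil-like cells (262 and 248), Hspa5 in FGF8 fibroblast-like and BSA chondrocyte-like cells, and all 4 are lowest in erythroid-like cells.

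Chondrocyte-like cells lay opposite to fibroblast-like ones for most chaperones. The 144 FGF8 and 66 BSA cells had similar depth, with medians of 21109.5 and 22908 UMIs. Hspa5 stood at 812 CPM with FGF8 and 1116 with BSA, a log2 ratio of -0.46 (-0.54 to -0.37). Atf4 stood at 198 and 327 CPM, a log2 ratio of -0.72 (-0.89 to -0.56). Both were lower with FGF8 by more than counting error. Creld2 had a ratio of -0.49 (-0.96 to -0.0078) and Pdia4 one of -0.35 (-0.66 to -0.036). Hsp90b1 had -0.21 (-0.32 to -0.096) and Calr -0.20 (-0.31 to -0.086). Pdia6 and Xbp1 were higher with FGF8 instead, at 0.20 (0.068 to 0.33) and 0.37 (0.053 to 0.69), and Herpud1 was at 0.084 (-0.20 to 0.37). Ddit3 had 55 and 35 UMIs, under the minimum. Of the 9 genes counted, 6 had a ratio below 0, where 58.5% of the 5660 genes counted in these cells did, so the share is close to that of all genes. Their median was -0.21, beside -0.088 for all genes.

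Hspa5 and Atf4 were lower with FGF8 in chondrocyte-like cells of either sex. Hspa5 was at -0.53 (-0.66 to -0.39) in female-called cells, 41 in either library, and at -0.88 (-1.03 to -0.73) in male-called ones, 82 and 14. Atf4 was at -0.88 (-1.14 to -0.62) and -0.94 (-1.23 to -0.64). The male-called values rest on 14 BSA cells, and the intervals leave out the spread between cells. Hsp90b1 was at 0.046 (-0.10 to 0.20) in the female-called and -0.52 (-0.73 to -0.30) in the male-called cells, and Calr at -0.036 (-0.19 to 0.12) and -0.42 (-0.64 to -0.19). For Hsp90b1 and Calr the female-called intervals thus held 0. Of the other chondrocyte-like cells 21 in the FGF8 and 11 in the BSA library had no sex call. Xbp1 was at 0.62 (0.18 to 1.07) and -0.18 (-0.74 to 0.42). The 7 cartilage markers summed to 35948 CPM in FGF8 and 48373 in BSA chondrocyte-like cells, and their part in the stress gene values was not tested.

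In smooth muscle or pericyte-like cells (285 and 185) 9 of the 10 genes were above 0, where 51.4% of genes were, with a median of 0.40. Creld2 stood at 33.9 against 20.1 CPM there, a log2 ratio of 0.76 (0.30 to 1.23). Xbp1 stood at 67.5 against 49.8 CPM, a log2 ratio of 0.44 (0.14 to 0.75), opposite in sign to fibroblast-like cells. Macrophage-like cells (894 and 470) had 6 of 10 above 0, where 55.1% of genes were. Their Atf4 stood at 142 against 105 CPM, a log2 ratio of 0.43 (0.29 to 0.57), beside 0.25 (0.19 to 0.31) for Hspa5 and -0.21 (-0.44 to 0.035) for Ddit3. Schwann-like cells (240 and 124) had 8 of 10 above 0, where 47.2% of genes were, with Hspa5 at 0.27 (0.16 to 0.38) and Pdia4 at -0.26 (-0.51 to -0.0058).

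Neutrophil-like cells (537 and 158) had 7 of the 8 genes counted above 0, where 55.1% of genes were. Hsp90b1 stood at 299 against 169 CPM there, a log2 ratio of 0.83 (0.52 to 1.14). Herpud1 was lower with FGF8, at 86.5 against 122 CPM and a ratio of -0.50 (-0.91 to -0.080). In mast-like cells (57 and 38) the 4 genes counted, all chaperones, were at 0.66 to 1.35, where 54.5% of genes were above 0. The summed chaperone level per mast-like cell, however, had medians of 1006 and 953 CPM, close to each other, and the median depths were 3436 and 7124 UMIs. In erythroid-like cells 4 of the 5 genes counted were above 0, where 21.5% of genes were, with Hsp90b1 at 0.60 (0.21 to 1.00). The unnamed cluster, at median depths of 2554 and 2494 UMIs, had 10 of 10 above 0, where 59.1% of genes were, with a median of 0.16.

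**Figure D4:**
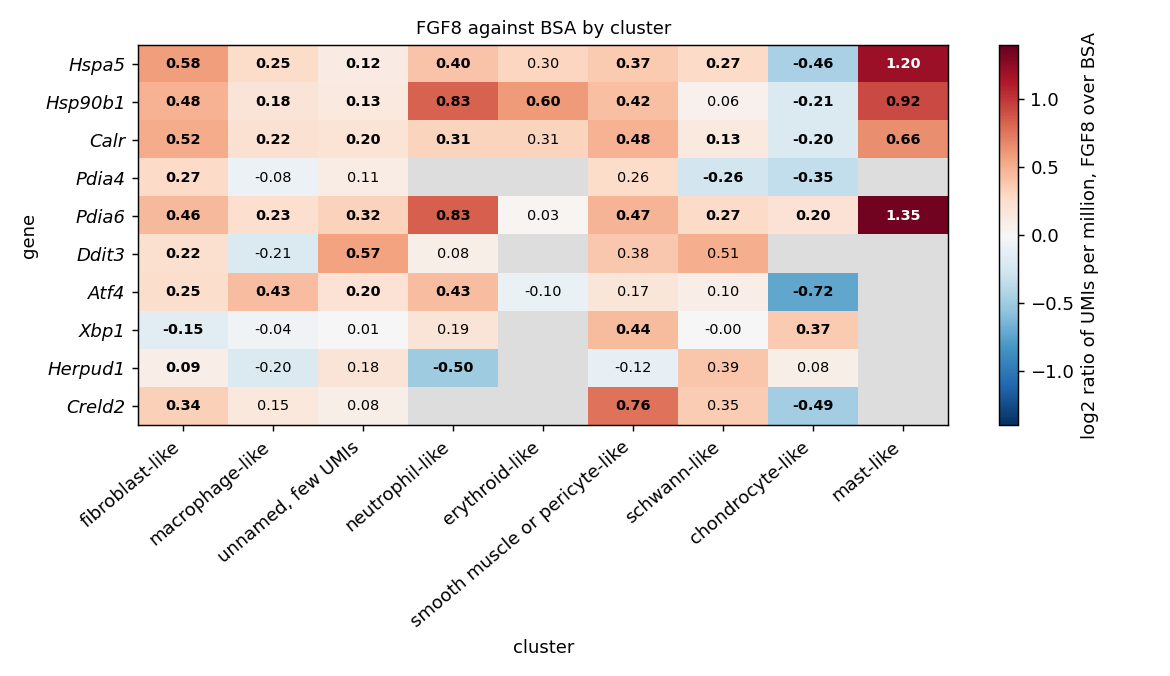
Log2 ratio of CPM, FGF8 over BSA, for each gene and cluster. Bold values have an exact 95% interval on 1 side of 0, and grey fields held fewer than 100 UMIs. The chondrocyte-like column is mostly blue (Atf4 -0.72, Hspa5 -0.46), and the fibroblast-like column is red except for Xbp1.

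Fibroblast-like cells were split again into 6 subclusters, without the genes of the lists used here, and these are called by their leading genes. The subcluster led by Prg4 and Mmp3 held 30.6% of FGF8 and 15.7% of BSA fibroblast-like cells and was the deepest, with medians of 34434 and 30711 UMIs. Each of the 5 chaperones had its highest level of the 6 subclusters there, in both libraries. Hspa5 stood at 1131 CPM in it with FGF8 and 789.6 with BSA, a log2 ratio of 0.52 (0.48 to 0.56). The mix of subclusters thus differed between the 2 libraries as well. Its part in the fibroblast-like ratios was not tested beyond the values within subclusters. The study warns that sampling might explain the gain of its own fibroblast cluster 1, since it sequenced single cells only once. In the Prg4 and Mmp3 subcluster 8 of 10 genes were above 0, where 47.8% of genes were, with a median of 0.20, Pdia4 at 0.014 (-0.095 to 0.13) and Xbp1 at -0.24 (-0.36 to -0.12).

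In the subcluster led by Lpl, Dlk1 and Pi16 (420 and 246 cells) 10 of 10 genes were above 0, where 50.2% of genes were, with a median of 0.41. Calr was at 0.61 (0.54 to 0.67) there and Xbp1 at 0.16 (0.0080 to 0.32). The Fmod, Comp and Mgp subcluster (475 and 314) had 9 of 10 above 0, where 54.8% of genes were, with a median of 0.32 and Ddit3 at 0.40 (0.13 to 0.68). The Tnfrsf19 and Nrg1 subcluster (911 and 646) had 8 of 10 above 0, where 48.4% of genes were, with a median of 0.13. Its abundant chaperones stood apart, Hspa5 at 0.41 (0.36 to 0.45) and Calr at 0.50 (0.46 to 0.55), while the intervals of Ddit3, Atf4, Xbp1, Herpud1, Pdia4 and Creld2 all held 0. In the shallow subcluster led by Lars2 and Camk1d (medians of 2657 and 3327 UMIs) 8 of the 8 genes counted were above 0, where 56.1% of genes were, with a median of 0.62. The smallest subcluster, led by Corin and Sox18 (82 and 39), had 3 of 8 above 0, where 52.7% of genes were. Hspa5 stood at 672 against 703 CPM in it, a ratio of -0.065 (-0.22 to 0.095), and Pdia6 had -0.28 (-0.52 to -0.033).

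The rest of the pathway was read from lists of ER and stress genes other than the 10, in the same fibroblast-like cells. There 42.9% of all genes counted were above 0, with a median of -0.072, for comparison with each list below. Of 18 other ER folding genes 12 were above 0, with a median of 0.15. Highest were Sdf2l1, a partner of BiP, at 21.0 against 11.3 CPM or 0.89 (0.73 to 1.05), Manf, a secreted ER stress factor, at 0.57 (0.54 to 0.61), and Fkbp2, a prolyl isomerase, at 0.44 (0.39 to 0.49). Lowest were Pdia5 at -0.21, Ppib (cyclophilin B, which works on collagen) at -0.13 and Sil1, which acts on BiP, at -0.090. Of the 13 ER degradation genes counted 4 were above 0, with a median of -0.13. Lowest were Erlec1 (-0.48) and Os9 (-0.30), lectins that deliver misfolded glycoproteins, and Herpud2 (-0.29), and highest were Edem1 (0.16), Derl2 (0.14) and Ufd1 (0.11).

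Of 9 sensors and related membrane factors 4 were above 0, a share near the 42.9% of all genes, with a median of -0.20. Ern1, which encodes IRE1, was at 0.44 (0.33 to 0.56), with Atf6 at 0.090 and Atf6b at 0.085. Lowest were Creb3l1, a factor of collagen-secreting cells, at 71.7 against 110.1 CPM or -0.62 (-0.68 to -0.56), Creb3 at -0.33 and Mbtps1, the protease that first cuts ATF6, at -0.29.

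Genes of the integrated stress response, many of them targets of ATF4, were above 0 in 24 of 29 cases with a median of 0.34. Asns (asparagine synthetase) stood at 39.5 against 16.8 CPM, a log2 ratio of 1.24 (1.11 to 1.37). Psat1 (serine synthesis) had 1.02 (0.89 to 1.15) and Cebpb, a transcription factor, 0.88 (0.84 to 0.93). Lowest were Aldh1l2 (-0.45), Nupr1 (-0.35) and Atf5 (-0.27). The ATF4 element was in 9 of the 24 windows found for this list, those of Asns and Nupr1 among them. Over the 4 lists together 44 of 69 genes were above 0 with a median of 0.14, beside 42.9% and -0.072 for all genes.

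Collagens and other matrix proteins on a list of 14 are among the proteins that the ER of fibroblasts folds, and other secreted proteins were not listed. Of 14 secreted matrix genes 1 was above 0, Tnc (tenascin C) at 0.32 (0.29 to 0.35), and the median was -0.65. Col1a1 stood at 6209 CPM with FGF8 and 13262 with BSA, a log2 ratio of -1.09 (-1.10 to -1.09). Col1a2 and Col3a1 were at -0.88 and -0.85, and nearest to 0 from below were Fn1 (-0.21) and Col12a1 (-0.32). Together the 14 took 36822 CPM with FGF8 and 64119.5 with BSA. Genes of transport into and out of the ER were above 0 in 4 of 21 cases, with a median of -0.12. They lay from Sec24d (-0.45), Sec61g (-0.42) and Kdelr3 (-0.39) to Spcs3 (0.043), Lman1 (0.13) and Spcs2 (0.20).

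Heat shock genes of the cytosol and mitochondria had a higher median ratio than the 10 ER genes. They were above 0 in 12 of 12 cases, with a median of 0.68. Hspd1, the mitochondrial HSP60, was at 1.23 (1.18 to 1.27), Hsp90aa1 at 1.12 (1.09 to 1.16) and Hsph1 at 0.94 (0.85 to 1.03), while Hspa8, Dnajb1 and Hspa1b were at 0.48, 0.40 and 0.34. Immediate early genes, which warm digestion is known to induce, were above 0 in 9 of 12 cases with a median of 0.22, from Jund (-0.42) and Egr1 (-0.26), with Btg2 near 0, to Jun (0.43), Junb (0.52) and Ier3 (1.12). The part of digestion in the ER gene values was not tested. In chondrocyte-like cells the heat shock list had a median of -0.81 and the immediate early list one of -0.68, both lower with FGF8. The immediate early medians were -0.27 in macrophage-like, -0.24 in neutrophil-like, -1.38 in erythroid-like and -0.86 in mast-like cells. The ER stress genes counted there, 10, 8, 5 and 4 in number, had medians of 0.16, 0.36, 0.30 and 1.06. All genes counted had medians of 0.039, 0.057, -0.35 and 0.064 in these cells. The 4 mast-like genes were all chaperones, whose summed medians per cell were close, as given above. In smooth muscle or pericyte-like and schwann-like cells the immediate early medians were 0.46 and 0.30, and those of the ER stress genes 0.40 and 0.20. Heat shock medians in these clusters ran from -0.12 (erythroid-like) to 0.35 (mast-like).

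**Figure D5:**
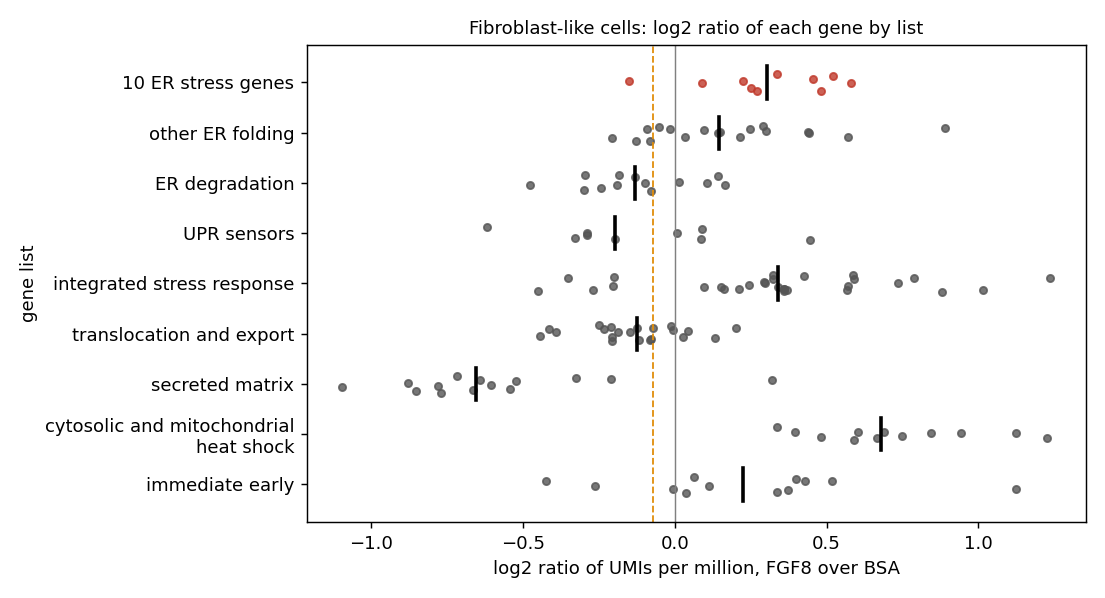
Each point is a gene, placed by its log2 ratio of CPM, FGF8 over BSA, in fibroblast-like cells, for genes with at least 100 UMIs. Black bars are list medians, and the dashed line is the median of all genes. Heat shock genes (median 0.68), integrated stress response genes (0.34) and the 10 ER stress genes (0.30) lie to the right, and secreted matrix genes (-0.65) to the left.

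Across single fibroblast-like cells thinned to 5000 UMIs (2931 FGF8, 1497 BSA), the abundant chaperones varied together. Pearson's r of log2(UMIs + 1) for Hspa5 with Hsp90b1 was 0.33 in the FGF8 and 0.27 in the BSA library, and for Hspa5 with Calr 0.32 and 0.26. With the sum of the other 9 genes, r was 0.42 and 0.38 for Hspa5, but -0.022 and 0.043 for Ddit3 and 0.038 and 0.12 for Xbp1. The cells of a library are not replicates, and the low counts of Ddit3 and Xbp1 limit any r.

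By the mean r of the 2 libraries, the genes most like the summed 10, among 2620 present in at least 25% of cells, were Pdia3 (0.310), an ER disulfide isomerase, Manf (0.303), Eif5a (0.295), Timp1 (0.291), Gapdh (0.270), Rps2 (0.267), Pkm (0.266), Actb (0.259), Ldha (0.258) and Ptma (0.257). The median over those genes was 0.011 in the FGF8 and 0.014 in the BSA library. Most of the summed UMIs came from Hspa5, Hsp90b1 and Calr, at 968, 879 and 781 of 3573 CPM in FGF8 fibroblast-like cells. Low counts limit r for other genes as well, so abundant genes can rank high. Pdia3 and Manf belong to the ER, and Gapdh, Pkm and Ldha are glycolytic enzymes. With the summed 10, the 11 other ER folding genes compared had a median r of 0.14 in the FGF8 and 0.17 in the BSA library. For 7 heat shock genes the medians were 0.22 and 0.12, and for 9 immediate early genes 0.12 and 0.095. The ER degradation, integrated stress response and transport lists lay between 0.0068 and 0.13. The secreted matrix list had a median r of -0.085 and -0.0067.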

How the data were processed

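Per the labels and the study's methods, the authors made both libraries with Chromium 3′ v3.1 kits and counted UMIs with Cell Ranger 9.0.0 against GRCm39 (the submitters' processing notes also name mm10). The deposited values are raw UMI counts per gene and barcode. The study's cell filter (more than 200 and fewer than 7500 genes, under 15% mitochondrial UMIs) left 6715 of 7249 FGF8 and 3252 of 3703 BSA barcodes, within 1 cell of the counts the study states. The files held 124889213 and 67739460 UMIs. They shared 6 barcodes, 4 after filtering.

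Cells were clustered with Seurat 5.3.0 (SCTransform 0.4.2, CCA integration, 30 components, resolution 0.05, seed 42), and fibroblast-like cells again at resolution 0.2 on 2624 of 3000 variable genes, without those of the lists. Clusters were named from marker lists, and 1 stayed unnamed. Counts were summed by library and cluster and scaled to CPM. Intervals are exact 95% Poisson for levels, conditional binomial for ratios and Clopper-Pearson for shares. Ratios were read for genes of at least 100 UMIs over both libraries. Scrublet (scanpy 1.11.5) called 0 doublets in either library, so it did not work, and leaving out the cells with the highest scores was an alternative. Scripts (R 4.3.3, Python 3.11.15) were tested on simulated data.

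Named were the 10 genes, the 3 highest and 3 lowest ratios of each list and the 10 genes most like the summed 10. The leading genes of subclusters were picked after their values were seen. The genes, lists and rules were chosen with earlier results of these data known. Alternatives covered the cell filter, integration, resolution, typing per cell, equal weight of cells, centring, TMM, thinning, depth, sex calls, cycling, doublet scores and the minimum count.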

Additional observations from a re-analysis of the deposited data

Results flagged for a closer look

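Flagged were genes whose exact 95% counting interval lay on opposite sides of 0 in fibroblast-like cells and in another cluster. The difference between clusters was not tested, since each group is 1 library. In chondrocyte-like cells Hspa5 had a log2 ratio of -0.46, against 0.58 in fibroblast-like cells. Hsp90b1 had -0.21 against 0.48, Calr -0.20 against 0.52, Pdia4 -0.35 against 0.27, Atf4 -0.72 against 0.25 and Creld2 -0.49 against 0.34. Xbp1 lay the other way, at 0.37 in chondrocyte-like and -0.15 in fibroblast-like cells, and at 0.44 in smooth muscle or pericyte-like cells. Pdia4 stood at -0.26 in schwann-like cells, and Herpud1 at -0.50 in neutrophil-like cells against 0.089 in fibroblast-like cells.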

How the results depend on the processing

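In fibroblast-like cells the median log2 ratio of the 10 genes stayed between 0.22 and 0.39, and 9 or 10 of them were above 0, under the main choices and all 16 alternatives. Hspa5 (0.41 to 0.67), Hsp90b1 (0.30 to 0.57), Calr (0.31 to 0.61), Pdia4 (0.16 to 0.38), Pdia6 (0.23 to 0.54), Ddit3 (0.081 to 0.43), Atf4 (0.18 to 0.34) and Creld2 (0.15 to 0.48) stayed above 0 in them. Xbp1 turned to 0.037 at resolution 0.1 and 0.037 at 0.2, where cells moved to a tenocyte-like cluster, to 0.059 thinned to 5000 UMIs and to 0.049 in cells without cycling-gene UMIs. Herpud1 turned to -0.017 and -0.017 at those resolutions. In chondrocyte-like cells the median stayed between -0.47 and -0.025, with Hspa5 (-0.88 to -0.33) and Atf4 (-0.997 to -0.47) below 0. There Calr turned to 0.032 with each cell weighted equally and 0.19 in cells of 10000 to 30000 UMIs, Creld2 to 0.25 thinned to 5000 UMIs, Hsp90b1 to 0.046 in female-called and Xbp1 to -0.18 in male-called cells. The macrophage-like median, 0.16, was 0.36 with equal weight, 0.30 and 0.26 thinned to 2000 and 5000 UMIs, and -0.019 in female-called cells. The schwann-like one, 0.20, was -0.049 in female-called cells, and the smooth muscle or pericyte-like one, 0.40, was 0.52 in male-called cells and 0.18 in the female-called ones. The neutrophil-like one, 0.36, ran from 0.23 without integration to 0.71 in male-called cells. The cause was not tested. No paired analysis was possible because each group is 1 library.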
